A study of Mus musculus with 36 samples.

Results

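The enzymes that cross-link collagen were examined in knee cartilage of mice with surgically induced osteoarthritis (OA). The set held 9 genes of 23048 with a symbol in the RNA count files: the lysyl oxidases Lox, Loxl1, Loxl2, Loxl3 and Loxl4, the procollagen lysyl hydroxylases Plod1, Plod2 and Plod3, and the transglutaminase Tgm2. Each gene was taken by its RefSeq transcript, and where a gene had several transcript rows, the row with the highest mean count over the 12 RNA libraries was used. The 9 genes had 11 rows. The 2 rows of Loxl4 held identical counts, and those of Plod2 differed by 11 to 45 reads per library.

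Collagen molecules become load-bearing only once they are tied to each other. Lysyl hydroxylases modify lysines of procollagen inside the cell, the secreted lysyl oxidases then oxidise lysines and hydroxylysines in the telopeptides, and the resulting aldehydes condense into covalent bridges between neighbouring molecules. Transglutaminase 2 makes a different bond, an isopeptide link between glutamine and lysine, in many matrix proteins, and is known in cartilage from hypertrophic chondrocytes.

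Male C57BL/6J mice, 12 weeks old at surgery, had destabilization of the medial meniscus (DMM) of the right knee, and the unoperated left knee of the same mice was the control. No sham surgery was part of the design, so surgery itself and joint instability cannot be told apart. Cartilage was collected 4 or 12 weeks after surgery, with 3 libraries per limb and week, each from 3 pooled knees, and separate mice gave the RNA and the DNA. The samples comprised 12 RNA libraries, 12 oxidative bisulfite (oxBS) libraries that measure 5-methylcytosine (5mC) and 12 bisulfite (BS) libraries. Because the libraries were pools, the p-values for RNA measured the spread between pools, not between animals. Those of the main 5mC test came from reads summed per limb and left that spread out.

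The RNA libraries held 27706547 to 62737656 counts. The cartilage markers of the labelled tissue were present throughout: the summed level of 15 chondrocyte markers was 17283 to 41000 normalised read counts (CPM, scaled to a common library size) in 4-week control, 14536 to 21875 in 4-week DMM, 11504 to 33506 in 12-week control and 23305 to 37708 in 12-week DMM libraries, and no chondrocyte marker was at 0 in a group. Other tissue was present too, and some marker sums differed between limbs. The sum of 12 neutrophil and bone marrow markers was 9549 to 27577 CPM in 4-week control and 13951 to 20948 in 4-week DMM libraries. At 12 weeks it was 26858 to 44907 and 21711 to 34988. It exceeded the chondrocyte sum in libraries of each limb and week, as in 12-week control replicate 1 (44907 against 18398 CPM). For 9 erythroid markers the sum was 7566 to 21324 against 7256 to 15774 CPM at 4 weeks. At 12 weeks that was 11264 to 15845 against 8283 to 14024. The sum of 16 skeletal muscle markers was 6714 to 25242 CPM in 4-week control against 648 to 4018 in 4-week DMM libraries, and 106 to 17154 against 710 to 13402 at 12 weeks. The sum of 12 fibroblast and synovium markers was 4280 to 11869 against 14162 to 22220 CPM at 4 weeks and 3858 to 7221 against 8267 to 13560 at 12 weeks. That of 10 osteoblast and osteocyte markers was 3964 to 6493 against 7573 to 8738 CPM at 4 weeks and 2748 to 4246 against 5072 to 7036 at 12 weeks. Neither the fibroblast nor the osteoblast sum overlapped between limbs at either week. Single genes weighed heavily in both sums, and in the chondrocyte sum. At 4 weeks Dcn averaged 7403 CPM in control and 12863 in DMM, and Ibsp 2987 and 5831 CPM. Of the chondrocyte markers, Chad averaged 14514 and 6861 CPM and Prg4 10411 and 6619 CPM. By contrast, Col2a1 averaged 885 and 1018 CPM and Matn1 1.17 and 0.49 CPM, so the chondrocyte sum mostly followed Chad and Prg4. At that week 2 of 12 fibroblast and 3 of 10 osteoblast markers were lower in DMM. The part of these tissues in the results on the cross-linking enzymes was not tested. In such tissue samples fewer cells of a type and less RNA per cell cannot be told apart.

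The genes were placed on the GRCm38 (mm10) build. In RefSeq, Loxl1 spans chr9:58287723-58313212 on the minus strand with 7 exons, Loxl2 chr14:69609476-69695834 on the plus strand with 14 exons, Loxl3 chr6:83034205-83052566 on the plus strand with 14 exons, and Loxl4 chr19:42592279-42612806 on the minus strand with 15 exons. Plod1 spans chr4:147909753-147936776 on the minus strand with 19 exons, Plod2 chr9:92542223-92608428 on the plus strand with 20 exons, Plod3 chr5:136987019-136996646 on the plus strand with 19 exons, and Tgm2 chr2:158116405-158146392 on the minus strand with 13 exons. Lox has 7 exons. Exons of 3 genes overlap a gene on the other strand: Loxl3 shares 535 bases (13.1% of its exon bases) with Htra2, Plod2 346 bases (9.32%) with B430319G15Rik and Plod3 315 bases (9.61%) with Znhit1. Whether counting used strand was not given in the sources used here, so reads in those stretches are uncertain.

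Reduced-representation libraries sample DNA near CCGG, the site of the enzyme MspI, and 4 member genes carried the cytosines on which the methylation results below turn. Their windows are shown from the reference, 5′ to 3′ on the strand named, with capitals marking the CpG pairs that hold a cytosine with a 5mC difference at q under 0.05 at 12 weeks (Loxl3, Tgm2 and Plod2) or both tested cytosines of the gene (Loxl2). All 836 member cytosines lay in a CpG of the reference on their stated strand.
Loxl3, exon 2 into intron 2, chr6:83035693-83035837, plus strand: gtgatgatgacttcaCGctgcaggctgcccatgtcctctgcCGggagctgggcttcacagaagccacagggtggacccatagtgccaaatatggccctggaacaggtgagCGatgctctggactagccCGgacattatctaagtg
Tgm2, intron 2, chr2:158139026-158139183, minus strand: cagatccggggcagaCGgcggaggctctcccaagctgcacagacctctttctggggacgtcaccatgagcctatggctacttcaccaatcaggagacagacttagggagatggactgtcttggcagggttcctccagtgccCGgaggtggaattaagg
Plod2, intron 1, chr9:92548811-92548960, plus strand: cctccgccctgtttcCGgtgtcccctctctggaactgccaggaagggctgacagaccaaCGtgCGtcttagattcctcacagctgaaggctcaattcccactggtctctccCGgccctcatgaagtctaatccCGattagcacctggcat
Loxl2, intron 13, chr14:69692480-69692687, plus strand: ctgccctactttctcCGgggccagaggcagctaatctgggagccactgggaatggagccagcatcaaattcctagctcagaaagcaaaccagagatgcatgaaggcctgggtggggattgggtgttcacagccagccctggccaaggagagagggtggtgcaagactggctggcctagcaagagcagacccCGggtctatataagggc

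Upstream stretches of 2 members are shown for their different 5mC levels, at different distances from the start. The stretch of Loxl1 held 2 tested cytosines, in capitals, 881 and 898 bases before the start, at 47.1 to 69.7% in the pooled reads of a limb and week. The 250 bases directly before the start of Plod1 held 16 CpG pairs, all in capitals, with 10 tested cytosines 6 to 112 bases before the start, at 0 to 2.60%.
Loxl1, upstream, chr9:58314077-58314125, minus strand: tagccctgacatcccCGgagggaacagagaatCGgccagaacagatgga
Plod1, upstream, chr4:147936777-147937026, minus strand: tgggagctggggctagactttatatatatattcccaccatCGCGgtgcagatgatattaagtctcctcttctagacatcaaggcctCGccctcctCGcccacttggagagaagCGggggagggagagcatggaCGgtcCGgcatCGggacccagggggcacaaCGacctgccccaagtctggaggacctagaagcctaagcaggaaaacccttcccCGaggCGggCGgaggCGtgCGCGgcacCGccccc

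Across all 12 libraries, Lox was the most abundant of the enzymes per length of transcript, at a mean of 58.2 RPKM, the CPM per kilobase of exon, with a range of 33.3 to 96.9. Plod2 and Tgm2 followed at 43.3 (18.2 to 60.4) and 43.0 (27.7 to 67.4) RPKM. Plod2 was above Tgm2 in 5 of 12 libraries, so the order of this pair did not hold, whereas Lox was above Plod2 in 10 and Tgm2 above Plod1 in 12. Plod1, which hydroxylates lysines of the collagen triple helix, averaged 25.2 RPKM, Plod3, which also glycosylates hydroxylysine, 20.7, and Loxl3 18.3. Plod1 exceeded Plod3 in 8 libraries and Plod3 exceeded Loxl3 in 7. Loxl1, an oxidase known for elastic fibres, averaged 7.64 RPKM, Loxl4 4.92 and Loxl2 2.19. Loxl3 was the only gene of this order whose range (12.7 to 26.5 RPKM) stayed clear of that of the next gene, Loxl1 (5.35 to 11.2 RPKM). The lowest enzyme, Loxl2, ranged from 0.901 to 4.23 RPKM. Together the 9 genes held 0.0596% to 0.119% of a library's counts.

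**Figure D1:**
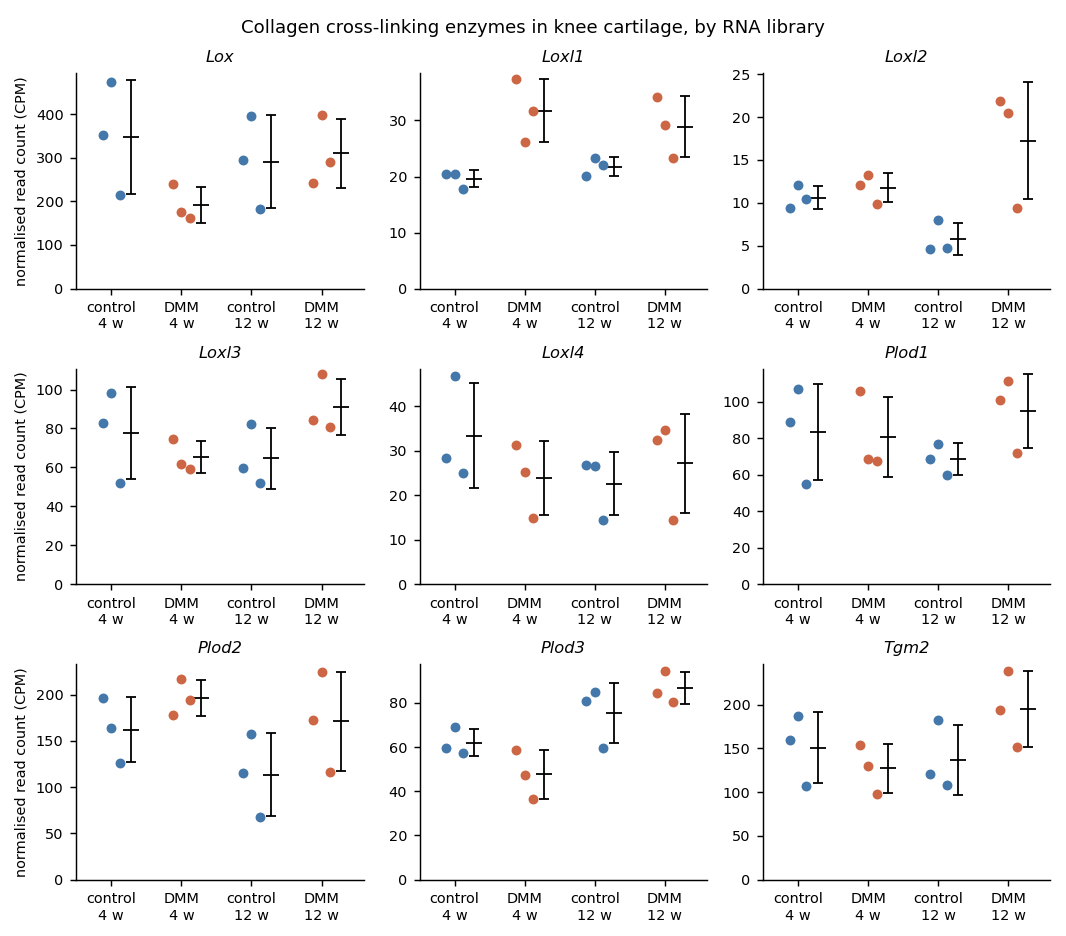
Normalised read counts (CPM, TMM-scaled) of the 9 cross-linking enzymes in each RNA library, 1 panel per gene and each y axis starting at 0. Points are the 3 libraries of each limb and week (blue, control; red, DMM) and bars the mean ± SD. Loxl1 in DMM lies above control at both weeks, Loxl2 in DMM lies above control at 12 weeks, and Lox at 4 weeks averages 347 CPM in control and 192 in DMM with ranges that overlap.

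To ask how the enzymes differ between DMM and control limbs, the libraries of each week were compared in edgeR by its quasi-likelihood test, p-values were adjusted by Benjamini-Hochberg (BH) over all transcript rows tested, and an adjusted p under 0.05 was called. No member was called at either week. Of all rows tested, 0.0757% were called at 4 weeks and 0.00476% at 12 weeks, so a count of 0 among 9 genes was read against almost no calls anywhere. At an unadjusted p under 0.05, 2 members passed at 4 weeks (1 higher and 1 lower, against 13.7% of all rows) and 4 at 12 weeks, all higher (16.3% of all rows). By DESeq2, 0 members were called at 4 weeks, where it called 747 of 25642 rows. At 12 weeks DESeq2 called 1 member, Loxl2, and 3.40% of all rows.

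The lysyl oxidases did not share a direction 4 weeks after DMM. Lox, the most studied enzyme of the family, read 353, 475 and 215 CPM in the control libraries and 239, 175 and 163 CPM in the DMM libraries. The lowest control library lay below the highest DMM library, so the limbs overlapped. The log2 fold change of Lox was -0.85 (SE 0.32, adjusted p = 0.336). Loxl1 read 20.5, 20.4 and 17.8 CPM in control and 37.4, 26.2 and 31.7 CPM in DMM libraries. All 3 DMM values exceeded all 3 control values, as in 10.8% of all rows tested. Its log2 fold change was 0.70 (SE 0.20, adjusted p = 0.265), from 19.6 ± 1.5 (SD, n = 3) to 31.8 ± 5.64 CPM. With 3 libraries against 3, an exact permutation test (two-sided) could go no lower than p = 0.1, the value it gave for Loxl1.

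The other lysyl oxidases were closer together at 4 weeks. Loxl2, whose product also cross-links collagen IV of basement membranes, averaged 10.6 ± 1.38 CPM in control and 11.8 ± 1.71 in DMM libraries. Loxl3 averaged 77.7 ± 23.6 against 65.3 ± 8.31 CPM and Loxl4 33.4 ± 11.7 against 23.8 ± 8.35 CPM. Libraries of both limbs overlapped for all 3 genes, with adjusted p = 0.749, 0.636 and 0.489.

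At 12 weeks all 5 lysyl oxidases averaged higher in DMM than in control, Loxl2 by the most. Loxl2 read 4.67, 7.95 and 4.76 CPM in the control libraries and 21.9, 20.5 and 9.39 CPM in the DMM libraries. A pair of DMM libraries stood near 20 CPM and the third was close to the highest control library, yet all 3 were above control, as in 10% of all rows tested. The log2 fold change was 1.58 (SE 0.36, unadjusted p = 0.00229, adjusted p = 0.210), and the exact permutation p was 0.1, the smallest possible. Calls on Loxl2 turned on single libraries: edgeR's adjusted p was 0.0456 without control replicate 2, when calls over all rows went from 1 to 860, and 0.0493 without DMM replicate 3, when they went to 102, and the DESeq2 adjusted p with all libraries was 0.00141.

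Loxl1 read 20.1, 23.2 and 22.0 CPM in 12-week control and 34.3, 29.2 and 23.3 CPM in 12-week DMM libraries. The limbs did not overlap, although the lowest DMM library lay just above the highest control library. Its log2 fold change was 0.42 (SE 0.17, adjusted p = 0.292; exact permutation p = 0.1). Loxl3 read 59.7, 82.2 and 52.2 CPM in control and 84.5, 107.8 and 80.9 CPM in DMM libraries. Its limbs overlapped only through control replicate 2, and the log2 fold change was 0.50 (SE 0.19, adjusted p = 0.278). Lox averaged 291 ± 106 CPM in control and 310 ± 79.7 in DMM, and Loxl4 22.6 ± 7.08 against 27.1 ± 11.1 CPM. Both overlapped over most of their range, at log2 fold changes of 0.09 and 0.27 with adjusted p = 0.892 and 0.721.

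Among the lysyl hydroxylases, Plod2 makes the hydroxylysine of the telopeptides from which the bone and cartilage type of cross-link is built. Its 4-week values were 196.8, 163.8 and 126.5 CPM in control and 178.1, 216.7 and 194.7 CPM in DMM libraries. At 12 weeks they were 115.6, 157.5 and 67.4 CPM in control and 172.7, 224.2 and 116.4 CPM in DMM libraries. DMM replicate 3 at 12 weeks lay among the controls, and the limbs overlapped at both weeks. The log2 fold change was 0.27 (SE 0.22, adjusted p = 0.542) at 4 weeks and 0.60 (SE 0.34, adjusted p = 0.391) at 12 weeks.

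Plod1 averaged 83.5 ± 26.5 CPM in control and 80.7 ± 21.8 in DMM at 4 weeks, then 68.5 ± 8.74 and 94.7 ± 20.3 CPM at 12 weeks. Plod3 averaged 62.1 ± 6.14 and 47.6 ± 11.3 CPM at 4 weeks, then 75.3 ± 13.6 and 86.5 ± 7.26 CPM at 12 weeks. The limbs of both genes overlapped at both weeks. The 12-week log2 fold change of Plod1 was 0.48 (SE 0.18, unadjusted p = 0.0320, adjusted p = 0.278) and that of Plod3 was 0.21 (SE 0.16, adjusted p = 0.504).

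Tgm2 read 159.1, 187.1 and 107.0 CPM in control and 153.6, 129.7 and 98.2 CPM in DMM libraries at 4 weeks. At 12 weeks it read 120.7, 182.6 and 108.2 CPM in control and 193.6, 239.2 and 152.0 CPM in DMM libraries. The limbs overlapped at both weeks, at 12 weeks through control replicate 2 alone, which exceeded only the lowest DMM library. The log2 fold change was -0.25 (SE 0.27, adjusted p = 0.659) at 4 weeks and 0.51 (SE 0.24, adjusted p = 0.325) at 12 weeks.

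**Figure D2:**
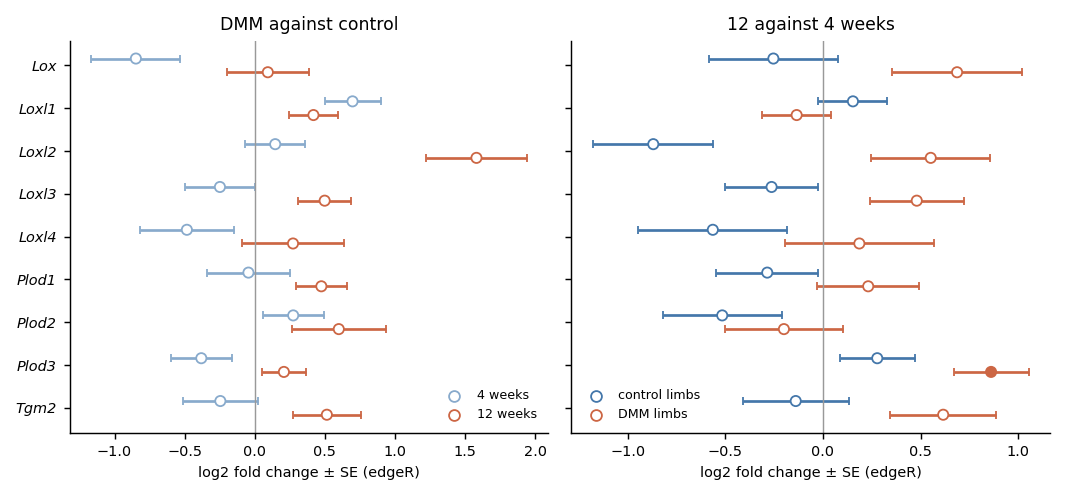
Fold changes of the 9 enzymes on the log2 scale with SE, from edgeR; the left panel compares DMM with control at 4 weeks (light blue) and 12 weeks (red), the right panel 12 with 4 weeks in control (blue) and DMM limbs (red). A filled point has an adjusted p under 0.05, which only Plod3 in DMM limbs has (0.86); on the left, 3 genes are above 0 at 4 weeks and 9 at 12 weeks.

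Read as a set, 3 members were higher and 6 lower in DMM at 4 weeks, with a median log2 fold change of -0.25 against -0.03 over all rows tested, of which 47.5% were higher. At 12 weeks 9 of 9 were higher, with a median of 0.48 against 0.01 over all rows, of which 51.5% were higher. The members share libraries and are not separate measurements, so these counts carry no test. The signs of Plod1 at 4 weeks and of Lox at 12 weeks turned on leaving out single libraries. Of the chondrocyte markers, 13 of 15 averaged lower in DMM at 4 weeks (median -0.81) and 15 of 15 higher at 12 weeks (median 0.54). The fibroblast and synovium markers were higher in 10 of 12 at 4 weeks (median 0.95) and 10 of 12 at 12 weeks (median 1.18). At 12 weeks 8 of these had an unadjusted p under 0.05. Of the osteoblast and osteocyte markers, 7 of 10 were higher at 4 weeks (median 0.29) and 8 of 10 at 12 weeks (median 0.40). At 12 weeks 12 of 12 neutrophil and bone marrow markers (median -0.52) and 9 of 9 tested erythroid markers (median -0.33) were lower. The erythroid markers Hba-a1 and Hba-a2 held the same values at 4 weeks (means of 2624 CPM in control and 2394 in DMM). They are thus not separate measurements. Of the macrophage markers, 9 of 9 tested averaged higher at 4 weeks (median 0.75) and 8 of 9 lower at 12 weeks (median -0.41), with a median of -1.14 for the interaction described next (7 of 9 at unadjusted p under 0.05). Of the muscle markers, 16 of 16 were lower at 4 weeks (median -2.59, all 16 at unadjusted p under 0.05 and 1 called). For the interaction 15 of 15 chondrocyte (median 1.35, 8 at unadjusted p under 0.05) and 16 of 16 muscle markers (median 2.44, 4 at unadjusted p under 0.05) had a positive estimate. Apart from the 1 muscle marker no gene of these lists was called by edgeR, and their part in the members' values was not tested. The difference between the weeks was tested as the interaction of limb and week over all 12 libraries. No member was called, as for all rows (0%), while 2 members had an unadjusted p under 0.05, as did 12.3% of all rows. These were Loxl2, at 1.42 on the log2 scale (SE 0.43, adjusted p = 0.405), and Loxl3, at 0.74 (SE 0.34, adjusted p = 0.406). The estimate was positive for 8 of 9 members, with Loxl1 at -0.29 as the exception. Since each week's mice were collected apart and were older at 12 weeks, time after surgery, age and any batch of the week cannot be told apart.

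To follow each limb over time, 12 weeks were compared with 4 weeks in the same fit. In DMM limbs Plod3, the lysyl hydroxylase and glucosyltransferase, rose: it read 58.9, 47.6 and 36.4 CPM at 4 weeks and 84.6, 94.6 and 80.4 CPM at 12 weeks. The log2 fold change was 0.86 (SE 0.19, edgeR adjusted p = 0.0106). The call was lost without DMM replicate 3 at 4 weeks, at a log2 fold change of 0.66 (adjusted p = 0.0529), when calls over all rows went from 5109 to 1682. It was the only member called, in a comparison that called 23.6% of all rows. The next members were Tgm2, at 0.62 (SE 0.27, adjusted p = 0.120), and Lox, at 0.69 (SE 0.33, adjusted p = 0.154). In the same libraries the chondrocyte marker sum was 14536 to 21875 CPM at 4 weeks and 23305 to 37708 CPM at 12 weeks, with 4 of 15 markers called higher. Muscle markers were higher at 12 weeks in 16 of 16 (median 1.23, 0 called) and neutrophil and bone marrow markers in 11 of 12 (median 0.45, 1 called). Some other marker sums were lower at 12 weeks. That of the fibroblast and synovium markers was 14162 to 22220 against 8267 to 13560 CPM (5 of 12 called lower, 1 higher). That of the macrophage markers was 768 to 1466 against 400 to 554 CPM (7 of 9 called lower). Of the adipocyte markers 4 of 8 and of the endothelium markers 3 of 9 were called lower. The part of these markers in the Plod3 values was not tested.

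In control limbs no member was called between 4 and 12 weeks, where 5.69% of all rows were. Loxl2 came nearest, with 9.35, 12.1 and 10.4 CPM at 4 weeks against 4.67, 7.95 and 4.76 CPM at 12 weeks. The log2 fold change was -0.87 (SE 0.31, adjusted p = 0.106). DESeq2, which called 11.5% of all rows in this comparison, called Loxl2 alone among the members (adjusted p = 0.0461). The 12-week limb difference of Loxl2 and this comparison share the same 3 control libraries, while its DMM libraries averaged 11.8 CPM at 4 weeks and 17.3 CPM at 12 weeks. Markers differed between the same control libraries: at 12 weeks 12 of 12 neutrophil and bone marrow markers were higher (median 1.01, 1 called), while 8 of 8 adipocyte (median -1.15, 1 called), 16 of 16 muscle (median -1.30, 1 called) and 10 of 12 fibroblast and synovium markers (median -0.70, 3 called lower and 1 higher) were lower. Of the chondrocyte markers 12 of 15 were lower (median -0.71, 1 called). The macrophage markers were lower in 7 of 9 (1 called) and the osteoblast and osteocyte markers in 3 of 10 (1 called). The part of all these markers in the Loxl2 values was not tested. Of the other members, 6 had a negative log2 fold change in control limbs, down to -0.56 for Loxl4, and Plod3 (0.28) and Loxl1 (0.15) had a positive one.

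The genes that make and assemble the substrates of the enzymes were read from 6 lists, none of which held a called gene between limbs at either week. At 12 weeks most averaged higher in DMM. This held for 10 of 10 genes of collagen prolyl hydroxylation (median log2 fold change 0.74, 6 with unadjusted p under 0.05), 5 of 5 procollagen chaperones and lysyl hydroxylase partners (0.59, 1), 5 of 7 tested genes of procollagen processing (0.65, 2) and 9 of 11 fibril-forming collagens (0.71, 7). It also held for 10 of 12 elastic fibre and LOX-binding proteins (0.68, 6), while the other transglutaminases had 3 of 5 tested genes higher and a median of 0.01. At 4 weeks the corresponding counts were 3 of 10 (median -0.21), 2 of 5 (-0.08), 5 of 7 (0.06), 8 of 11 (0.14), 10 of 12 (0.67) and, for 4 tested transglutaminases, 3 of 4 (0.35).

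The genes with the largest differences in each list gave the scale. P4ha3, a catalytic subunit of prolyl 4-hydroxylase, averaged 2.79 CPM in control and 10.6 in DMM at 12 weeks (log2 fold change 1.93, adjusted p = 0.205), and at 4 weeks 7.56 and 17.04 CPM (1.18, adjusted p = 0.383). The prolyl 3-hydroxylase P3h3 had a log2 fold change of 1.24 at 12 weeks (adjusted p = 0.215) and P3h2 one of -1.06 at 4 weeks (adjusted p = 0.377). Fkbp10, the isomerase that partners the telopeptide lysyl hydroxylase, averaged 120 and 181 CPM at 12 weeks (0.60, adjusted p = 0.276). Its relative Fkbp14 had 0.50 at 4 weeks and 0.66 at 12 weeks, and the hydroxylysine galactosyltransferase Colgalt2 -0.90 at 4 weeks, with adjusted p = 0.386, 0.308 and 0.378.

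Pcolce, which enhances removal of the procollagen C-propeptide, averaged 93.5 CPM in control and 232 in DMM at 12 weeks (1.32, adjusted p = 0.123) and 205 and 382 CPM at 4 weeks (0.90, adjusted p = 0.324). Its relative Pcolce2 had a log2 fold change of 0.69 at 12 weeks (adjusted p = 0.316) and the N-proteinase Adamts3 1.02 at 4 weeks (adjusted p = 0.320). Col3a1 averaged 346 and 1685 CPM at 12 weeks (2.29, adjusted p = 0.122) and 1065 and 2955 CPM at 4 weeks (1.48, adjusted p = 0.371). Of the minor fibrillar collagens, Col5a1 had 0.92 at 4 weeks (adjusted p = 0.218) and Col27a1 1.12 at 12 weeks (adjusted p = 0.246).

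The microfibril protein gene Mfap5 averaged 3.06 CPM in control and 17.7 in DMM at 12 weeks, the lowest adjusted p of these lists (2.54, adjusted p = 0.0807). Mfap4 averaged 1.10 CPM in control and 13.1 in DMM at 4 weeks (3.58, adjusted p = 0.236). At 12 weeks it averaged only 0.43 and 1.92 CPM (2.20, adjusted p = 0.349), and the limbs overlapped. Postn, a matricellular protein that binds collagen, averaged 89.8 and 351 CPM at 4 weeks (1.96, adjusted p = 0.236). F13a1, the plasma transglutaminase subunit, averaged 672 and 1254 CPM at 4 weeks (0.90, adjusted p = 0.304). Tgm1 had -0.65 at 4 weeks and -0.58 at 12 weeks and Tgm3 -0.58 at 12 weeks, with adjusted p = 0.444, 0.612 and 0.592. Both were low: in control, Tgm1 averaged 1.19 CPM at 4 weeks and 1.57 at 12 weeks, and Tgm3 0.61 at 12 weeks. Over time in DMM limbs, where 23.6% of all rows were called, 3 of 11 fibril-forming collagens were called higher at 12 weeks, and 1 of 10 genes of prolyl hydroxylation and 1 of 7 of procollagen processing were called lower. Among 12 elastic fibre genes 1 was called higher and 3 lower, and among 5 other transglutaminases 1 each. In control limbs, where 5.69% of all rows were called, 2 of 10 prolyl hydroxylation genes and 1 of 12 elastic fibre genes were called lower.

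**Figure D3:**
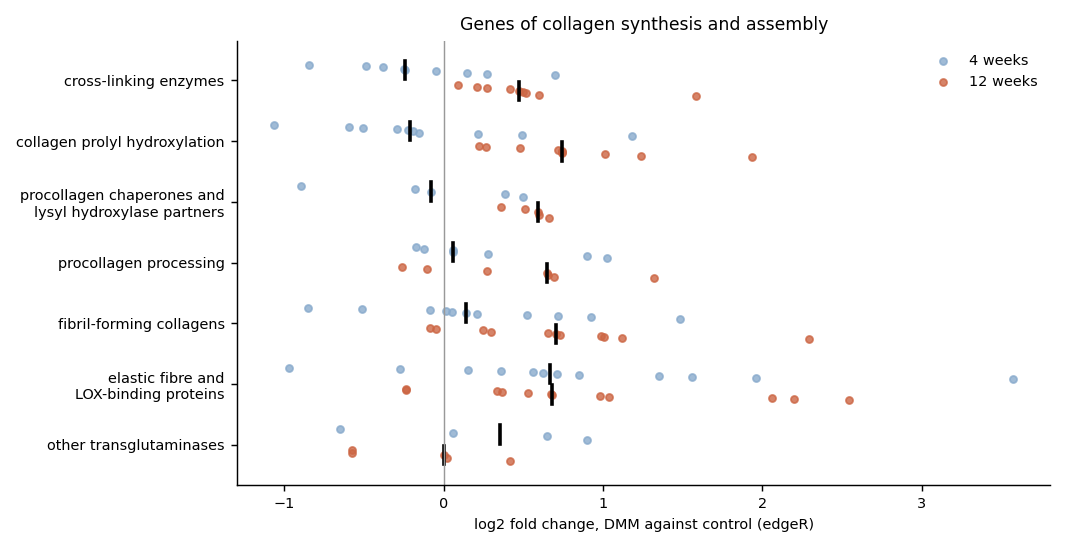
Log2 fold changes, DMM against control, of the cross-linking enzymes and of 6 lists of genes of collagen synthesis and assembly; each point is 1 gene (light blue, 4 weeks; red, 12 weeks) and black bars are list medians. The median of the enzymes is -0.25 at 4 weeks and 0.48 at 12 weeks, and that of prolyl hydroxylation -0.21 and 0.74; no gene shown has an edgeR adjusted p under 0.05.

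Likeness of pattern was described by Pearson's r of log2 CPM over the 12 libraries, among 15587 genes. These points share libraries, depth and tissue content, so no p is given. Plod3 lay closest to Prkcsh, a subunit of glucosidase II (r = 0.993), and to the cartilage collagen gene Col11a2 (0.991). Plod2 lay closest to Serpinh1, the collagen chaperone HSP47 (0.978), and Ift46 (0.959). Loxl3 was most like Prelp (0.960) and Phldb1 (0.959), Tgm2 most like Klf4 (0.961) and Ltbp3 (0.959), Plod1 most like Myo1d and Cspg4 (0.957 each), and Lox most like Cilp (0.954) and Stk32b (0.929). Lower values were the highest found for Loxl2, with Rraga (0.928) and Lman1l (0.903), Loxl4, with Ids (0.891) and Tns3 (0.870), and Loxl1, with Mmp2 (0.881) and Col5a1 (0.877). Among the members, Loxl3 and Tgm2 had the highest r (0.950), followed by Loxl3 and Plod1 (0.883) and Plod1 and Tgm2 (0.852). Lox and Loxl1 had the lowest r (-0.279), and Plod2 and Plod3 had r = -0.120. With each limb and week centred on its own mean, the order changed and both signs turned: Lox and Loxl3 had the highest r (0.947), Loxl3 and Tgm2 had 0.938, Lox and Loxl1 0.271 and Plod2 and Plod3 0.518. Centred in this way, Loxl1 had 0.729 with Mmp2 and 0.619 with Col5a1. Loxl2 had 0.773 with Rraga and 0.644 with Lman1l. The named partners of the other members had 0.854 (Tns3 with Loxl4) to 0.979 (Col11a2 with Plod3).

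DNA methylation was read as the 5mC level of each cytosine in oxBS libraries with at least 10 reads in all 6 libraries of a week, from 5000 bases before the start of a member to its end. A differentially methylated cytosine (DMC) differed by at least 25 percentage points with q under 0.05 in a logistic model of the pooled reads. Pooling leaves out the spread between libraries, so the value of each library is given. The median coverage of an oxBS library was 22 to 102 reads at 4 weeks and 28 to 72 at 12 weeks. At 4 weeks none of 832 member cytosines was a DMC, against 0.000554% of all cytosines tested, and 82 had an unadjusted p under 0.05, against 8.02% of all. At 12 weeks 3 of 739 were DMCs (0.227% of all cytosines tested), and all 3 fell in DMM, as did 2548 of all 2892 DMCs. On leaving out libraries the count was 0 to 6 at 4 weeks and 1 to 11 at 12 weeks. With an overdispersion correction, which brings in the spread between libraries, none of the 3 was called, nor any of the 1273121 cytosines tested. Of the member cytosines at 12 weeks, 26 were lower with q under 0.05 (0.973% of all cytosines tested) and 2 higher (0.141% of all), the latter in intron 4 of Loxl3.

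A pair of the DMCs lay in exon 2 of Loxl3, on the minus strand within the exon sequence shown above. The one at chr6:83035709, 1504 bases from the start, read 47.0, 56.8 and 55.1% in control and 22.4, 22.6 and 25% in DMM libraries, from 31 to 116 reads. It fell by 29.3 percentage points in pooled reads (52.5% to 23.2%, q = 2.49e-05). Its neighbour at chr6:83035735 read 39.1, 54.1 and 45.5% in control and 16.8, 25.8 and 19.0% in DMM libraries. No DMM library reached a control library at either cytosine, and the second fell by 26.1 points (44.9% to 18.8%, q = 0.000138, 31 to 113 reads). At chr6:83035804 and chr6:83035822, in the same window, the pooled difference was -23.9 and -23.1 points (q = 0.00244 and 0.00387), and 1 DMM library at 46.7% overlapped the controls at both.

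The remaining DMC lay in intron 2 of Tgm2 at chr2:158139168, 7224 bases from the start. It read 67.3, 80 and 58.3% in control and 41.4, 38.7 and 41.5% in DMM libraries, from 20 to 58 reads. The DMM libraries lay close together and below every control library, and the pooled level fell by 25.9 points (66.7% to 40.8%, q = 0.0142). The other capital of the Tgm2 window, chr2:158139041, had a pooled difference of -24.9 points (54.3% to 29.4%, q = 0.0129).

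At a difference of at least 20 points and q under 0.05, 20 of 739 member cytosines were found at 12 weeks, all lower, where 0.596% of all cytosines tested were lower by these limits. Most cytosines past these limits were lower, 7590 of 8582. The 20 member cytosines lay in Tgm2, Plod2, Loxl1 and Loxl3, or upstream of Loxl3 (-4262, -2746 and -2721 bases from its start). In intron 1 of Plod2 the window shown above held 4 of them. The largest difference of Plod2, at chr9:92548826, was -24.7 points, with 49.1, 44.4 and 36.8% in control and 14.7, 25.6 and 21.8% in DMM libraries (q = 0.00101). Those of Loxl1 were -21.4 points at chr9:58299819 (q = 0.0112) and -20.6 points at chr9:58288635 (q = 0.0326). For Loxl2, the gene with the largest 12-week RNA difference, only 2 cytosines were tested, both in intron 13. The one at chr14:69692495 read 34.9, 35.5 and 40.9% in control and 9.41, 26.3 and 24.4% in DMM libraries (-19.9 points, q = 0.0162). Its partner at chr14:69692672 had a difference of -7.43 points (q = 0.665).

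**Figure D4:**
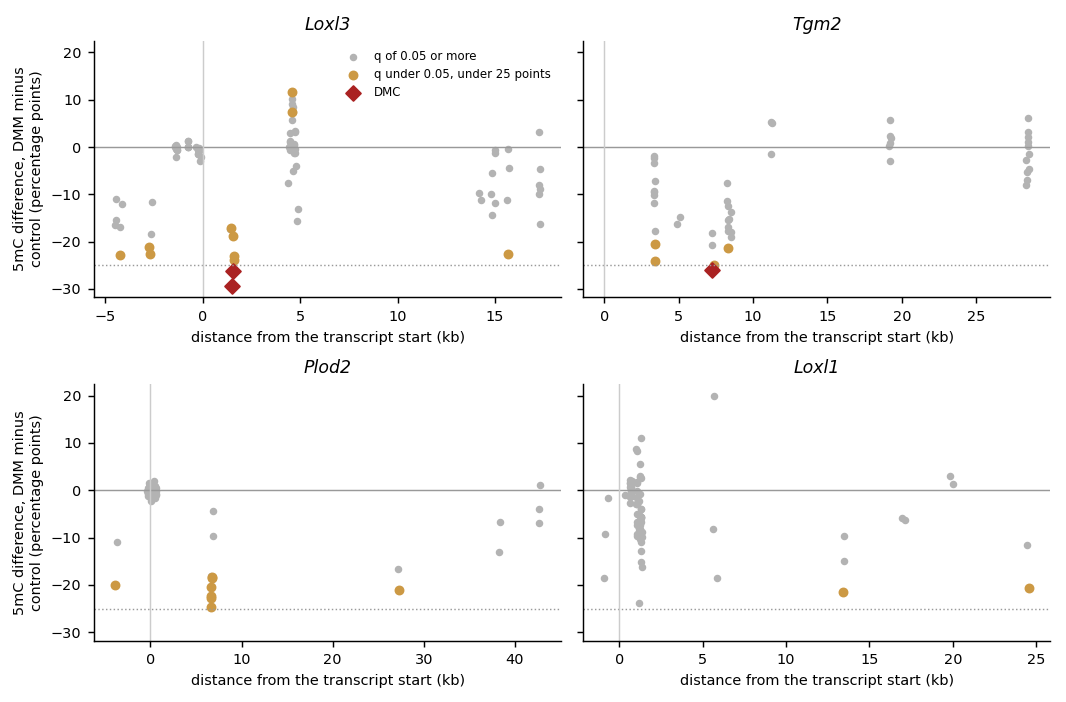
Differences in 5mC level at 12 weeks (percentage points, DMM minus control, pooled reads) of each tested cytosine of Loxl3, Tgm2, Plod2 and Loxl1 against distance from the transcript start (kb). Red diamonds are the 3 DMCs, gold points have q under 0.05 with a difference under 25 points, and the dotted line marks -25 points; the largest difference is -29.3 points in Loxl3.

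Cytosines of intermediate level (20 to 80% in pooled reads) showed where the members stood against the genome. At 12 weeks 158 of 189 such member cytosines (83.6%) were lower in DMM, with a median difference of -9.63 points, against 69.1% and -4.33 points over all 264550. At 4 weeks 124 of 196 (63.3%) were lower, with a median of -2.14 points, against 57.4% and -1.02 points over all. Cytosines of 1 gene share its libraries and reads, so these shares carry no test. Per gene at 12 weeks, 33 of 35 were lower in Loxl3, 30 of 32 in Tgm2, 16 of 17 in Plod2, 19 of 21 in Plod3 and 40 of 50 in Loxl1. Loxl4 and Plod1 were divided, with 8 of 16 and 7 of 13 lower.

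Over gene bodies, beyond 500 bases after the start, every DMM library was below every control library for 1 of 9 members at 4 weeks (6.29% of all genes) and for 4 of 9 at 12 weeks (23.5% of all genes). The 12-week genes were Lox, at 7.14 ± 0.63% in control and 4.65 ± 0.28% in DMM (56 cytosines), Plod2, at 28.3 ± 0.66 and 20.7 ± 1.63% (30 cytosines), Tgm2, at 67.7 ± 2.40 and 59.7 ± 1.88% (48 cytosines), and Loxl2, at 30.5 ± 1.07 and 18.7 ± 8.41% from the 2 cytosines already given. The body of Loxl4 was at 53.4 ± 0.26 and 50.7 ± 2.0% at 4 weeks. In Plod1 and Plod3 the bodies stood at 58.8 ± 0.71 against 57.6 ± 1.88% and 53.4 ± 1.22 against 52.4 ± 0.69% at 12 weeks, with overlapping limbs.

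Promoters, taken from 1000 bases before to 500 after the start, had tested cytosines in 7 of 9 members, with none in Loxl2 and Tgm2. In 6 of the 7 the level stayed low in every library, at most 2.36%, in Lox. Loxl1 differed: its level was 28.4 to 35.3% in control and 26.9 to 30.0% in DMM at 4 weeks, from 5 cytosines, and 40.0 to 49.6% and 38.1 to 41.1% at 12 weeks, from 4. Its upstream cytosines at chr9:58314093 and chr9:58314110, the capitals of the printed Loxl1 stretch, stood at 57.6% each in pooled 4-week control reads, whereas its tested cytosines in exon 1 stood at 3.19 and 2.20%. The mean of this promoter thus joined methylated upstream and unmethylated exon cytosines. The limbs overlapped for all 7 promoters at both weeks. Over all genes, few promoters had limbs apart. Every DMM library was below every control library for 6.38% of promoters at 4 weeks and 11.2% at 12 weeks. The reverse held for 2.98% and 4.79%. In the 300 bases around the start (250 before to 50 after), Lox held 6 CpG pairs, Loxl1 9 and Loxl3 10, and the other 6 members 18 to 33, against a median of 7 over 32851 RefSeq promoters. The letters CCGG, which read the same on both strands, were in that window of 8 members, all but Lox, and in 52.8% of those promoters.

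**Figure D5:**
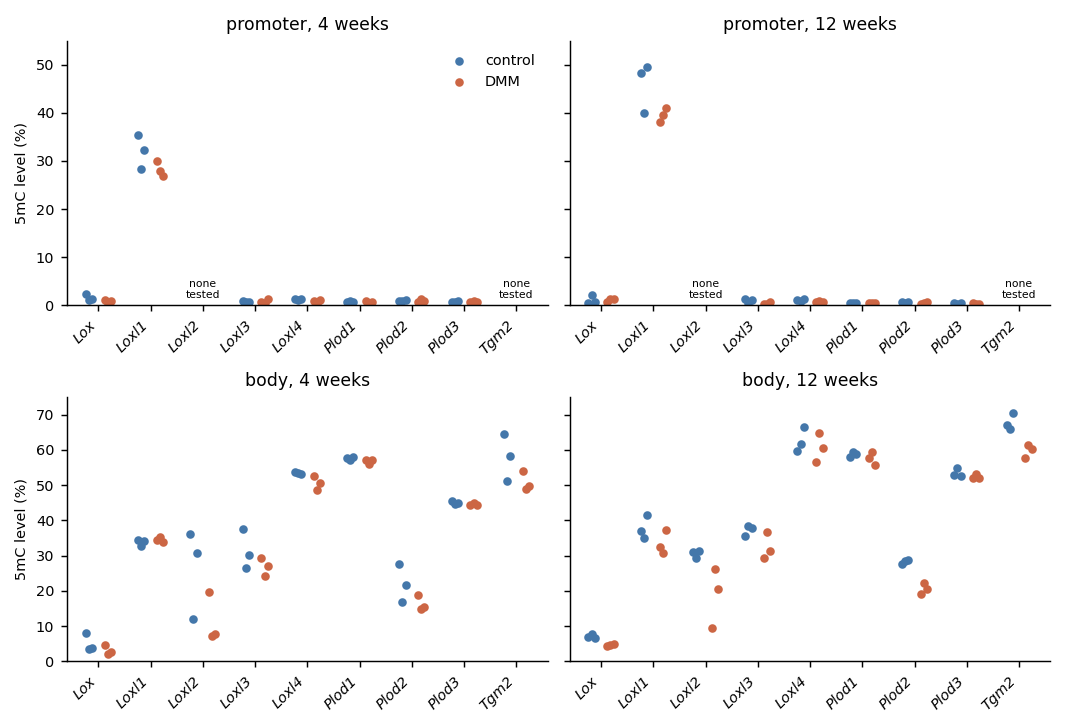
Mean 5mC level (%) of the tested cytosines in the promoter (top) and body (bottom) of each member at 4 weeks (left) and 12 weeks (right), 1 point per oxBS library (blue, control; red, DMM). Only the Loxl1 promoter stands above 2.36%, and at 12 weeks the bodies of Lox, Loxl2, Plod2 and Tgm2 have every DMM library below every control library.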

How the data were processed

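RNA, oxBS and BS libraries of mouse knee cartilage were taken from the deposited files. For RNA, the authors deposited raw counts per RefSeq transcript (FLEXBAR trimming, STAR alignment to mm10, featureCounts), and these were not normalised. For DNA, the authors deposited the percent of methylated and unmethylated calls and the coverage of each cytosine after MspI digestion, CUTADAPT trimming and bisulfite alignment, with sites under 10 reads left out, from which read numbers were recovered. The library kit was described differently in the paper and the labels, and strand handling of the counts was not given in the sources used here. Library totals are given with the results.

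Groups (limb and week) came from the labels. Of 30048 rows, 29447 matched a RefSeq symbol, 18 took the symbol the study paired with them and 583 had none. Rows were filtered by filterByExpr, scaled by TMM and tested with edgeR 4.0.16 (robust quasi-likelihood, BH over all rows) in R 4.3.3, with limma 3.58.1. DESeq2 1.42.0 was an alternative. For weekly comparisons the 6 libraries of that week were fitted, and for all others the 12 libraries in 4 groups. CPM and RPKM used TMM library sizes, and correlations log2 CPM with a prior count of 2. Oxidative bisulfite reads with coverage of at least 10 were pooled per limb and tested by the likelihood ratio of a logistic model, with BH over all cytosines, in Python 3.11.15 (numpy 2.4.6, pandas 2.3.3, scipy 1.17.1, matplotlib 3.10.9). The 5-hydroxymethylcytosine level was the BS minus the oxBS percent. Sequences and gene positions came from RefSeq and the GRCm38 genome, and 3 members were in the RefSeq promoter table. Scripts were tested on simulated data.

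Members and lists were chosen with earlier results of these data known. All 9 members were named; of each pathway list, the 2 genes with the largest absolute log2 fold change per week; for each member, the 2 genes most correlated with it; and the DMCs, or the cytosine with the largest difference at q under 0.05. Further cytosines of the printed windows, of Loxl1 and the second cytosine of Loxl2 were named after their values were seen. Alternatives were the test, the normalisation, the filter, the rows tested, the libraries fitted, a replicate block, the coverage minimum, the size of the difference, overdispersion, strand merging, the promoter window and leaving out each library.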

Additional observations from a re-analysis of the deposited data

Results flagged for a closer look

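5-Hydroxymethylcytosine (5hmC), outside the comparisons above, was read as the BS minus the oxBS level over the same cytosines. The 5mC level is what is subtracted, so 5hmC and 5mC are not separate measurements. Of 32 promoter and body regions examined, 4 had all DMM values above all control values, and in 3 of them, given here, every DMM library also exceeded 1 point. In 1 region, the Lox body at 12 weeks, all DMM values (-0.097, 0.074 and -0.18 points) were below all control values (1.95, 1.10 and 0.119), as in 2.2% of all gene bodies. The Loxl1 promoter at 4 weeks averaged 11.2 points in DMM (11.4, 9.76 and 12.3) and 5.51 in control libraries (1.89, 7.96 and 6.69), from 5 cytosines. At 12 weeks its limbs overlapped, from 4 cytosines. It then read 17.9, 1.72 and 10.1 points in DMM and -2.71, 12.7 and -1.57 in control libraries. The Loxl1 body at 12 weeks averaged 7.91 points in DMM (8.25, 5.73 and 9.76) and 3.94 in control (5.11, 3.52 and 3.18), from 70 cytosines. Its 5mC level averaged 33.4% in DMM and 37.7% in control, with overlapping limbs. The Plod1 body at 12 weeks averaged 6.76 points in DMM (6.22, 6.02 and 8.04) and 3.70 in control (4.95, 2.33 and 3.81), from 40 cytosines. Over all genes, DMM was above control in this way for 5.37% of promoters at 4 weeks and 11.4% of bodies at 12 weeks. The limbs of all 9 member bodies overlapped at 4 weeks. The BS data of DMM replicate 1 at 12 weeks carried the name of another replicate and were assigned by the labels; its value is the first of the 3 DMM values at 12 weeks. With groups of 3 libraries, single libraries were not screened as outliers.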

How the results depend on the processing

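Members called between limbs at 12 weeks numbered 0 by edgeR, 1 by DESeq2 (Loxl2), 2 with the replicate number as a block (Loxl2, adjusted p = 0.0406, and Plod2, 0.0441) and 0 to 1 on leaving out each library. The adjusted p of Loxl2 ranged from 0.00141 to 0.678 over its alternatives, and its log2 fold change from 1.35 to 1.88. Between weeks in control limbs 1 member (Loxl2) was called by DESeq2 and 0 to 1 on leaving out each library (Loxl2, without DMM replicate 3 at 12 weeks); in DMM limbs 0 to 1 (Plod3 was lost without DMM replicate 3 at 4 weeks). No member was called under any alternative at 4 weeks or for the interaction. Over all rows, edgeR called 16 and 1 at 4 and 12 weeks, DESeq2 747 and 861, and the block 354 and 734; the interaction gave 0 by edgeR and 16 by DESeq2. The labels do not say whether equal numbers share mice, and residuals of same-numbered libraries correlated at 0.365, -0.328 and 0.0791 at 4 weeks and -0.542, 0.267 and -0.260 at 12 weeks, so the numbers were not taken as pairs.

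Leaving out a library turned the sign of small fold changes (log2): Plod1 (-0.30 to 0.16) at 4 weeks, Lox (-0.17 to 0.34) at 12 weeks, Lox (-0.54 to 0.037) and Tgm2 (-0.40 to 0.043) over time in control limbs, and Loxl1 (-0.29 to 0.00081), Loxl4 (-0.10 and -0.048 in 2 of them, to 0.49) and Plod2 (-0.46 to 0.015) in DMM limbs. Member DMCs numbered 0 to 6 at 4 weeks (6 without control replicate 2, when all DMCs went from 8 to 3039) and 1 to 11 at 12 weeks on leaving out libraries (11 without DMM replicate 2, when all DMCs went from 2892 to 4362, 8 without control replicate 1 or 3, 5 without control replicate 2 or DMM replicate 3, 1 without control replicate 2 and DMM replicate 1 together). At 12 weeks 20 points gave 20, a block 4 and an overdispersion correction 0, with 35 member cytosines (and 1.97% of all cytosines) at unadjusted p under 0.05. Promoters whose limbs did not overlap numbered 2 in pooled reads (Loxl4 at both weeks) and 1 (Loxl3 at 4 weeks) in a window of 500 bases each side. Shares over all genes were not computed for these alternatives. The 3 libraries per group, and 2 tested cytosines in Loxl2, limit what could be detected; the cause of these shifts was not tested.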
